A study of Homo sapiens with 3 samples.

Results

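The small leucine-rich proteoglycans are secreted matrix proteins, and 10 of their genes were followed in C28/I2 cells: DCN, BGN, LUM, FMOD, PRELP, OGN, ASPN, EPYC, OMD and CHAD. They were chosen by gene symbol as members of this family and not by a rule on measured values, though earlier results of these data were known. All 10 were found among the 19215 genes of the authors' deposited table. C28/I2 is an immortalised line of human chondrocytes, the cells of cartilage, and results from it describe a single line. Transcripts were measured by RNA sequencing in 3 libraries of 1 labelled group, spheroid cultures (aggregates of cells) that received 0.5% DMSO, a solvent, for 48 h. No label says whether the 3 came from separate cultures, so their spread may be technical. The monolayer side enters through the fold changes that the authors deposited; its treatment is not stated in any source used here, and its single libraries were not analysed here. Culture form and any difference in treatment therefore cannot be told apart.

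Small leucine-rich proteoglycans have a short core protein of leucine-rich repeats, which in most members carries chondroitin, dermatan or keratan sulfate chains. Decorin, biglycan, lumican and fibromodulin bind collagen and take part in the assembly and spacing of its fibrils, and decorin and biglycan also bind growth factors such as TGF-beta. In cartilage the family lies between the collagen network and the aggrecan-rich gel, and free biglycan can signal through Toll-like receptors. The family is divided into classes by sequence: DCN, BGN and ASPN belong to class I, LUM, FMOD, PRELP and OMD to class II, OGN and EPYC to class III, and CHAD to class IV.

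Levels are FPKM, fragments scaled by transcript length and library size, as deposited, so genes can be compared per length. The 3 libraries summed to 571705, 581522 and 623496 FPKM and listed 17207 to 17240 genes above 0. Read depth is unknown, and levels therefore carry no counting interval. The chondrocyte label was only partly met by markers: SOX9, the transcription factor of the chondrocyte lineage, averaged 6.71 ± 0.0866 FPKM (SD, n = 3), but 3 of 11 chondrocyte markers reached 1 FPKM. COL2A1, the main cartilage collagen, reached at most 0.03 FPKM. CNMD, which encodes chondromodulin, was listed at 0 in all 3. Of 10 markers of fibroblasts and tendon, 7 reached 1 FPKM, with COL1A1 and COL1A2, the chains of type I collagen, at 471 ± 28.6 and 500 ± 15.3 FPKM (SD, n = 3).

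Biglycan transcripts made up nearly all of the family's signal in the spheroids. The 10 genes summed to 66.8, 74.1 and 74.9 FPKM in replicates 1, 2 and 3, and BGN held 93.0%, 93.1% and 93.2% of these sums. LUM and DCN followed between 1.33 and 2.03 FPKM, FMOD lay just under 1 FPKM, CHAD and PRELP lower still, and the other 4 genes were at or near 0. In all, 3 of the 10 genes reached a mean of 1 FPKM, 6 reached 0.1 FPKM and 7 were above 0 in at least 1 library. Class I summed to 68.4 ± 4.37 FPKM, class II to 3.02 ± 0.106 FPKM and CHAD, alone in class IV, to 0.46 ± 0.168 FPKM (SD, n = 3), while both class III genes were listed at 0.

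**Figure D1:**
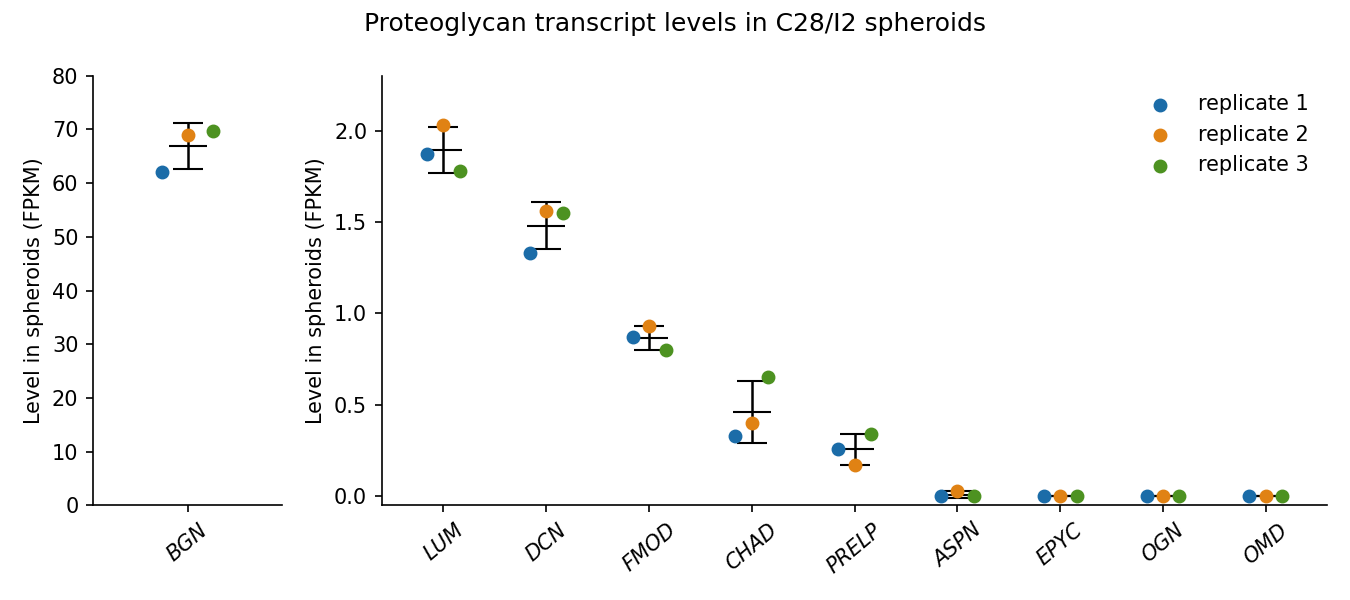
Level of each proteoglycan gene in the 3 spheroid libraries, in FPKM on linear axes, with BGN on an axis of its own. Points are libraries, the horizontal mark is their mean and the bars are 1 SD (n = 3). BGN lies between 62.09 and 69.79 FPKM, every other gene at or below 2.03 FPKM, and EPYC, OGN and OMD are listed at 0.

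The order of the genes was the same in each library: BGN, LUM, DCN, FMOD, CHAD, PRELP. Ranges over the 3 libraries did not overlap between BGN and LUM, LUM and DCN, DCN and FMOD, or FMOD and CHAD. CHAD and PRELP overlapped, with a lowest value of 0.33 FPKM for CHAD and a highest of 0.34 FPKM for PRELP. By their ranges this pair was not told apart, although CHAD was the higher within each library. The gap from LUM to DCN was narrow, from 1.78 FPKM for the lowest LUM library to 1.56 FPKM for the highest DCN library. The ratio of BGN to DCN was 45.3 ± 1.25 and that of BGN to LUM 35.5 ± 3.27 (SD, n = 3 libraries).

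Between culture forms, 4 members were higher in the spheroids and 1 was lower, by the authors' comparison, with a call set at an adjusted p under 0.05 and a log2 fold change of 1 or more in either direction. The genes that rose were DCN, LUM, FMOD and BGN, which are also the 4 most abundant members in the spheroids, the group in which they were higher. Of the 9 members with a fold change, 44.4% were thus called higher, against 11.5% of all 18467 tested genes, and 11.1% lower, against 9.34%. The share called lower is near that of all genes. The median log2 fold change of the 9 members by the authors' deposited table was 0.72 and that of all tested genes 0.04. OGN and OMD, listed at 0 in the spheroids, lie below that median whatever the size of their fitted change.

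**Figure D2:**
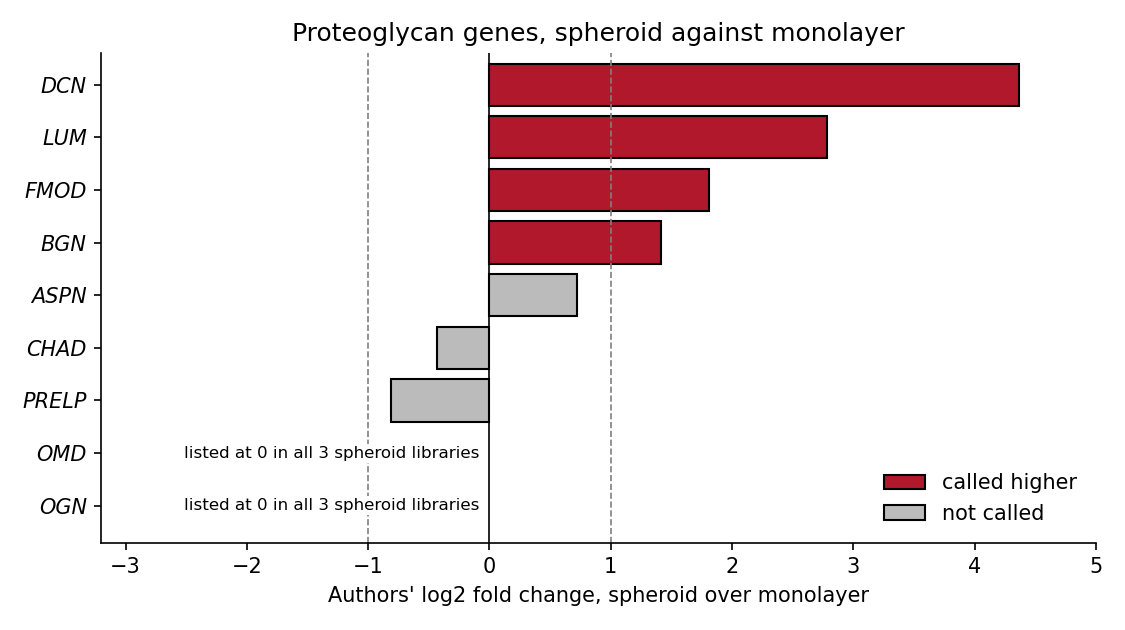
The authors' log2 fold change of each proteoglycan gene, spheroid over monolayer; bars to the right mean higher in spheroids and dashed lines mark 1 and -1. DCN reaches 4.36, LUM 2.78, FMOD 1.81 and BGN 1.42, while ASPN, CHAD and PRELP stay between the lines; OMD and OGN have no bar since they are listed at 0 in the spheroids, and EPYC has no fold change.

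BGN encodes biglycan, a class I proteoglycan that binds collagen and carries chondroitin or dermatan sulfate. Its level was 62.09, 68.98 and 69.79 FPKM in replicates 1, 2 and 3. All 3 libraries were high within the family, replicate 1 being the lowest, and 92.8% of the 18120 genes above 0 in any spheroid library had a lower mean. In the authors' deposited table BGN had a log2 fold change of 1.42, or 2.67 times the monolayer level (adjusted p = 5.56e-40, DESeq2). Its coefficient of variation over the 3 libraries was 6.32%, against a median of 6.34% for the 601 genes within 25% of its level. BGN was the most abundant in the spheroids of the 4 genes that rose and had the smallest fold change among them. The gene overlaps HAUS7 in the annotation; HAUS7, a spindle protein gene, was listed at 6.42, 4.88 and 5.97 FPKM in the spheroids and went the other way, at -1.14 by the authors' deposited table.

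The 250 bases before the RefSeq transcript start of BGN are shown because it dominates the family's signal. They lie on the plus strand at chrX:153494730-153494979 of GRCh38.p14. Capitals mark GC boxes (GGGCGG), the motif that Sp1-type factors bind, read on either strand:
BGN: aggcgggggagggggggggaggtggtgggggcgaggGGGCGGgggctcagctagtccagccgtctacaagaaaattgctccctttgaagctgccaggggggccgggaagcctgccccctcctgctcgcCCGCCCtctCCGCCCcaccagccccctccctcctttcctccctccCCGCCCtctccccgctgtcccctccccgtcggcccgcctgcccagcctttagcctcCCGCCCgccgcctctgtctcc
This window holds 5 GC boxes, the nearest starting 21 bases before the transcript start, and none of the other motifs searched on both strands: the TATA box TATAAA, the AP-1 site TGANTCA and the hypoxia core ACGTG. Among 35116 RefSeq windows of the same length, 42.6% hold a GC box, 10.7% the TATA box, 6.57% the AP-1 site and 18.5% the hypoxia core. The BGN window is 74.0% G and C, against a median of 58.0%. A like window stands before CHAD, which averaged 0.46 FPKM and was not called. It is 72.8% G and C and holds 3 GC boxes, the nearest also starting 21 bases before the transcript start. Unlike the BGN window, it also holds 1 TATA box and 1 hypoxia core. These matches describe letters and are not evidence of binding.

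DCN encodes decorin, the class I proteoglycan that decorates collagen fibrils with a single glycosaminoglycan chain. The 3 libraries listed it at 1.33, 1.56 and 1.55 FPKM, low in replicate 1 and nearly equal in the other two. Its mean of 1.48 ± 0.13 FPKM (SD, n = 3) stood above that of 35.5% of the genes detected in the spheroids. Its change was the largest of the 7 members above 0, at a log2 fold change of 4.36 by the authors' deposited table, a factor of 20.6 over monolayer (adjusted p = 3.43e-18, DESeq2). Even so, its level in the spheroids was far below that of BGN, its closest relative in class I, in every library. At so low a spheroid level, a factor of 20.6 puts the monolayer level of DCN near 0, so the size of the factor is coarse.

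ASPN encodes asporin, the class I member with a run of aspartates, which binds collagen and TGF-beta. It was listed at 0.00, 0.03 and 0.00 FPKM, above 0 in replicate 2 alone. In the authors' deposited table its log2 fold change was 0.72 with an adjusted p of 0.907 (DESeq2). The same fold change and p were listed for 338 genes, 334 of which were above 0 in 1 spheroid library, so the value is not particular to ASPN.

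LUM encodes lumican, a keratan sulfate proteoglycan of class II that regulates fibril diameter. Values were 1.87, 2.03 and 1.78 FPKM, with no library apart. In the authors' deposited table LUM had a log2 fold change of 2.78, or 6.87 times the monolayer level (adjusted p = 8.08e-12, DESeq2). Its coefficient of variation was 6.69%, against a median of 12.7% for the 873 genes within 25% of its level.

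FMOD encodes fibromodulin, a class II keratan sulfate proteoglycan that shares collagen binding sites with lumican. It was listed at 0.87, 0.93 and 0.80 FPKM, a narrow range for so low a level: its coefficient of variation was 7.51%, and the median for 740 genes within 25% of its level was 17.9%. In the authors' deposited table its log2 fold change was 1.81, or 3.51 times the monolayer level (adjusted p = 0.000164, DESeq2). LUM exceeded FMOD in each library, by 2.15, 2.18 and 2.23 times.

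PRELP encodes a class II protein with an arginine- and proline-rich end that binds heparan sulfate, and it lies next to FMOD on chromosome 1. Its values were 0.26, 0.17 and 0.34 FPKM, with replicate 2 low and replicate 3 high. PRELP did not pass: its log2 fold change was -0.81 by the authors' deposited table, with an adjusted p of 0.07 (DESeq2). OMD, the class II gene of osteomodulin, a keratan sulfate proteoglycan of bone, was listed at 0 in all 3 libraries and was not called (adjusted p = 0.484, DESeq2).

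The windows before FMOD and PRELP are set side by side because these neighbours were called differently. The FMOD window is chr1:203351123-203351372 on the minus strand and the PRELP window chr1:203475556-203475805 on the plus strand of GRCh38.p14, both from RefSeq and printed 5' to 3'. Capitals mark GC boxes and, on the opposite strand, the TATA box letters:
FMOD: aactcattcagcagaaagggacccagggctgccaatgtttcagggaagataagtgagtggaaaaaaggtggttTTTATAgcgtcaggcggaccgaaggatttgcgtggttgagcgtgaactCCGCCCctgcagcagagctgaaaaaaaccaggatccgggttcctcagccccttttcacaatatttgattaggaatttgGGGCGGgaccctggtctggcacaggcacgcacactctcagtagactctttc
PRELP: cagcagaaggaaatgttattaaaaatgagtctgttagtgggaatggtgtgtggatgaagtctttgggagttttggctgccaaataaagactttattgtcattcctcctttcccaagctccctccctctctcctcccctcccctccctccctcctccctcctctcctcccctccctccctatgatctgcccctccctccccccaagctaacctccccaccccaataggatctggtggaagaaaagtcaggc
The FMOD window holds 2 GC boxes, starting 129 and 51 bases before the transcript start, and 1 TATA box match on the opposite strand, 177 bases before it. The PRELP window holds none of the 4 motifs. The windows are alike in G and C, at 51.6% and 52.8%. No match in a window says only that these letters are not in it. The sequence table held a window for 7 of the 10 members; DCN, LUM and OMD had none.

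Both class III genes were listed at 0 in the spheroids. OGN encodes osteoglycin, also called mimecan, and EPYC encodes epiphycan, a proteoglycan of growth plate cartilage. OGN was called lower in the authors' comparison (adjusted p = 0.0114, DESeq2), and no fold is given against a group at 0. OGN overlaps CENPP in the annotation, and CENPP was lower too, at -2.15 by the authors' deposited table. Whether reads of CENPP entered the comparison of OGN was not tested. Of 358 genes at 0 in the 3 spheroid libraries that had a fold change, 11 were called lower, or 3.07%. EPYC had no fold change in the table and was not tested.

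CHAD encodes chondroadherin, a class IV cartilage protein without glycosaminoglycan chains that binds collagen and integrins. It was listed at 0.33, 0.40 and 0.65 FPKM, with replicate 3 high, and its mean fell from 0.46 to 0.365 FPKM without that replicate. Its log2 fold change by the authors' deposited table was -0.44 with an adjusted p of 0.469 (DESeq2), so no change was detected. CHAD overlaps ACSF2 in the annotation, and ACSF2 was listed at 17.5, 17.9 and 18.8 FPKM. Overlaps were judged by the spans of genes, not by exons, and whether counting used strand is not stated in any source used here. Whether the level of CHAD holds reads of ACSF2 was therefore not tested.

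Most of the family lies in runs of neighbouring genes. On chromosome 12 the order is EPYC, KERA, LUM, DCN: LUM and DCN at one end both rose, EPYC at the other was listed at 0 and not tested, and KERA, the gene of keratocan, has no row under that symbol. On chromosome 1 the order is FMOD, PRELP, OPTC: FMOD rose, PRELP did not pass, and OPTC, encoding opticin, was listed at 0. On chromosome 9 the order is OGN, OMD, ASPN, ECM2: the first 3 were at or near 0, while ECM2, an extracellular matrix protein gene, was listed at 2.14, 2.21 and 1.53 FPKM and rose, with a log2 fold change of 1.31 by the authors' deposited table (adjusted p = 1.02e-05, DESeq2). All 4 overlap CENPP, a centromere protein gene with 1.43, 1.14 and 1.08 FPKM in the spheroids. CENPP stood at -2.15 by the authors' deposited table, opposite to ECM2 and in the direction of the OGN call.

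**Figure D3:**
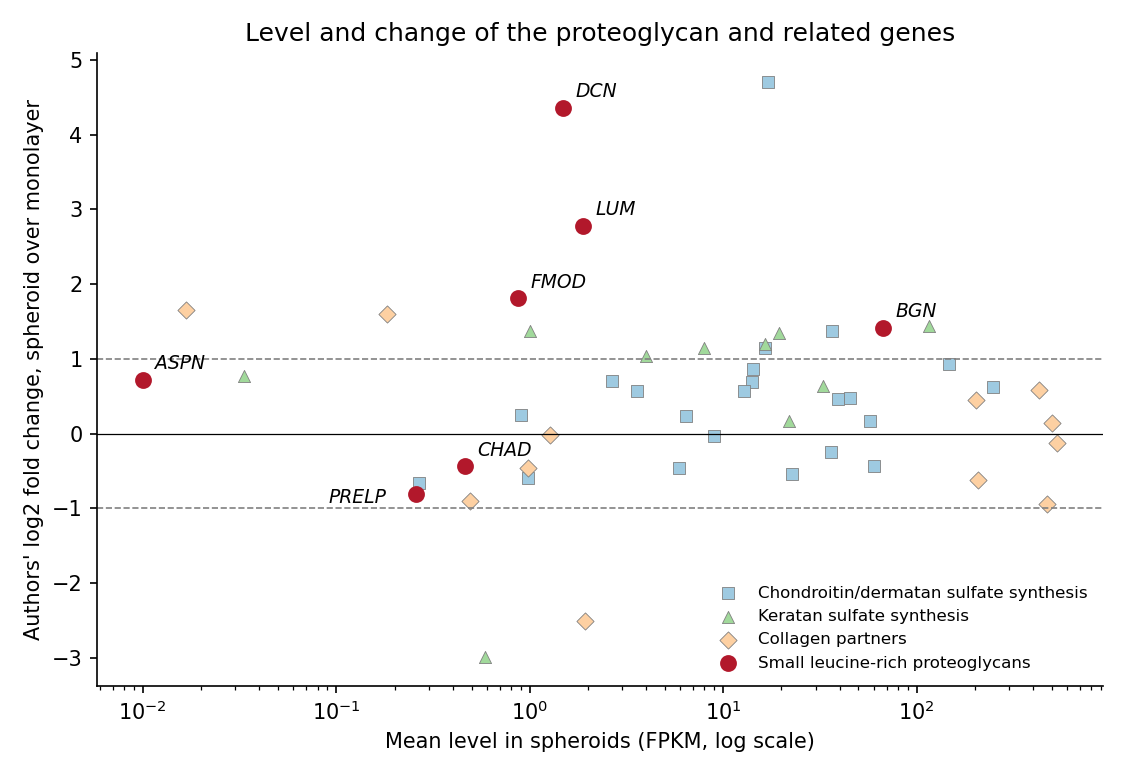
Mean spheroid level (FPKM, log axis) against the authors' log2 fold change for proteoglycan genes above 0 and for genes of chain synthesis and collagen partners; each point is a gene and dashed lines mark 1 and -1. DCN, LUM and FMOD combine levels under 2 FPKM with changes of 1.81 to 4.36, BGN has the highest level of the family, and the abundant collagen genes lie between the lines.

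A pair of more distant leucine-rich relatives was more abundant than most of the family. TSKU, encoding tsukushi, a secreted inhibitor of BMP signalling, was listed at 34.2, 37.6 and 36.6 FPKM, and PODNL1, a podocan-like gene, at 21.8, 25.3 and 26.2 FPKM. Both stood above every member but BGN in each library. PODNL1 rose, with a log2 fold change of 2.36 by the authors' deposited table (adjusted p = 1.39e-56, DESeq2). PODNL1 overlaps DCAF15, listed at 14.8 to 16.9 FPKM and at -0.97 by the authors' deposited table. Whether the level of PODNL1 holds reads of DCAF15 was not tested. TSKU, at 0.71, was under the minimum fold change (adjusted p = 1.12e-11, DESeq2). Of 8 tested relatives and cluster neighbours, 2 were called higher and 1 lower, against 11.5% and 9.34% of all tested genes. Those called higher were PODNL1 and ECM2; the gene called lower was LRRC17, at 0.193 FPKM, named after its values were seen.

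The enzymes that build keratan sulfate, the chain carried by lumican and fibromodulin, were called higher in 6 of 10 cases and lower in 1, against the 11.5% and 9.34% of all tested genes. B4GALT1, a galactosyltransferase that extends the chain and acts on many other glycans, was listed at 114, 121 and 112 FPKM and had a log2 fold change of 1.43 by the authors' deposited table (adjusted p = 9.59e-60, DESeq2). ST3GAL1, a sialyltransferase, stood at 1.35, the chain-extending B3GNT2 at 1.21 and CHST1, the keratan sulfate galactose sulfotransferase, at 1.15 by the authors' deposited table. Over the 10 genes the median log2 fold change was 1.10. The 3 genes not called were CHST6, FUT8 and B4GALT4, a further galactosyltransferase. B4GALT4 stood at 0.17 (adjusted p = 0.2, DESeq2) and FUT8 at 0.63, under the minimum fold change. CHST6, the sulfotransferase of corneal keratan sulfate, was listed at 0.02, 0.02 and 0.06 FPKM. The gene called lower was CHST4, at -2.99 by the authors' deposited table, named after its values were seen and listed at 0.587 ± 0.105 FPKM (SD, n = 3).

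Enzymes of the linkage region and of chondroitin and dermatan sulfate, the chains of biglycan and decorin, were mostly present. Of 22 genes, 19 reached 1 FPKM, 3 were called higher and none lower. The share called higher, 13.6%, was near the 11.5% of all tested genes. CHST15, which adds a further sulfate to chondroitin sulfate, was listed at 16.1, 19.3 and 16.0 FPKM and had a log2 fold change of 4.71 by the authors' deposited table (adjusted p = 1.35e-143, DESeq2). CHSY1, a chondroitin synthase, stood at 1.37 and DSE, the epimerase that makes dermatan sulfate, at 1.15 by the authors' deposited table. By the adjusted p alone, with no minimum fold change, 12 were higher and 4 lower, against 26.0% and 24.5% of all tested genes. The most abundant was CHPF, a chondroitin polymerising factor, at 248 ± 18.4 FPKM (SD, n = 3), with a log2 fold change of 0.62 by the authors' deposited table.

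Of 12 collagen genes whose products the family binds or lies beside, 1 was called higher and 1 lower, each 8.33% and near the background, with a median log2 fold change of -0.07. COL6A3, a chain of the microfibrillar type VI collagen to which biglycan binds, was the most abundant, at 553, 559 and 478 FPKM, and had a log2 fold change of -0.12 by the authors' deposited table (adjusted p = 0.431, DESeq2). COL1A1 stood at -0.95, under the minimum fold change (adjusted p = 1.77e-24, DESeq2), and COL1A2 at 0.14 by the authors' deposited table. COL12A1, a fibril-associated collagen, fell by 2.51 on the log2 scale by the authors' deposited table and was listed at 2.42, 1.91 and 1.44 FPKM. The gene called higher was COL14A1, at 0.183 FPKM, named after its values were seen. No test of the difference between the proteoglycan and collagen genes was made.

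Of 14 ligands and receptors bound by members of the family, 8 (57.1%) were called higher and 1 (7.14%) lower, against 11.5% and 9.34% of all tested genes. Their median log2 fold change was 1.04, against 0.04 over all tested genes. Of those called higher, LRP1, VASN and TLR4 lay just above the minimum fold change, at 1.00, 1.04 and 1.04. By the adjusted p alone, 8 were higher and 3 lower, against 26.0% and 24.5% of all tested genes. The receptor genes MET, at -0.76, and IGF1R, at -0.46, were among those lower, and EGFR stood at 0.03. TLR2 and TLR4, Toll-like receptors through which free biglycan signals, had log2 fold changes of 5.51 and 1.04 by the authors' deposited table (adjusted p = 2.73e-24 and 1.67e-18, DESeq2). TLR2 was listed at 2.25, 3.02 and 2.87 FPKM and TLR4 at 7.74, 6.87 and 6.34 FPKM. ITGA2, a collagen receptor subunit, stood at 2.95 and TGFB3, a TGF-beta ligand, at 1.69 by the authors' deposited table. TGFB1 stood at 1.33 by the authors' deposited table, with 393, 423 and 510 FPKM in the spheroids. TGFB2 fell by 2.65 on the log2 scale by the authors' deposited table and was listed at 4.98 FPKM in replicate 1 but 2.57 and 2.76 FPKM in the others. The most abundant of the list was ITGB1, the beta 1 integrin chain, at 552 ± 66.9 FPKM (SD, n = 3), with a log2 fold change of 0.08 by the authors' deposited table.

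A list of 13 genes held proteases that process or cleave the family, and PCOLCE, which encodes an enhancer of BMP1 and not a protease. Of the 13, 4 (30.8%) were called higher and 1 (7.69%) lower, against 11.5% and 9.34% of all tested genes. The share called lower was thus near the background, and PCOLCE was not called. The median log2 fold change of the 13 was 0.81, against 0.04 over all tested genes. MMP13, a collagenase that also cleaves fibromodulin and biglycan, was listed at 210, 268 and 268 FPKM and had a log2 fold change of 5.50 by the authors' deposited table. GZMB, the granule protease granzyme B, stood at 2.99, the stromelysin gene MMP3 at 2.46 and MMP14, a membrane-bound metalloproteinase, at 2.35 by the authors' deposited table. MMP3 was the most abundant of the list, at 2723 ± 273 FPKM (SD, n = 3). BMP1, which removes the propeptide of biglycan, was listed at 129, 137 and 138 FPKM with a log2 fold change of 0.25 by the authors' deposited table. The gene called lower was ADAMTS1, named after its values were seen, at 0.303 FPKM.

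**Figure D4:**
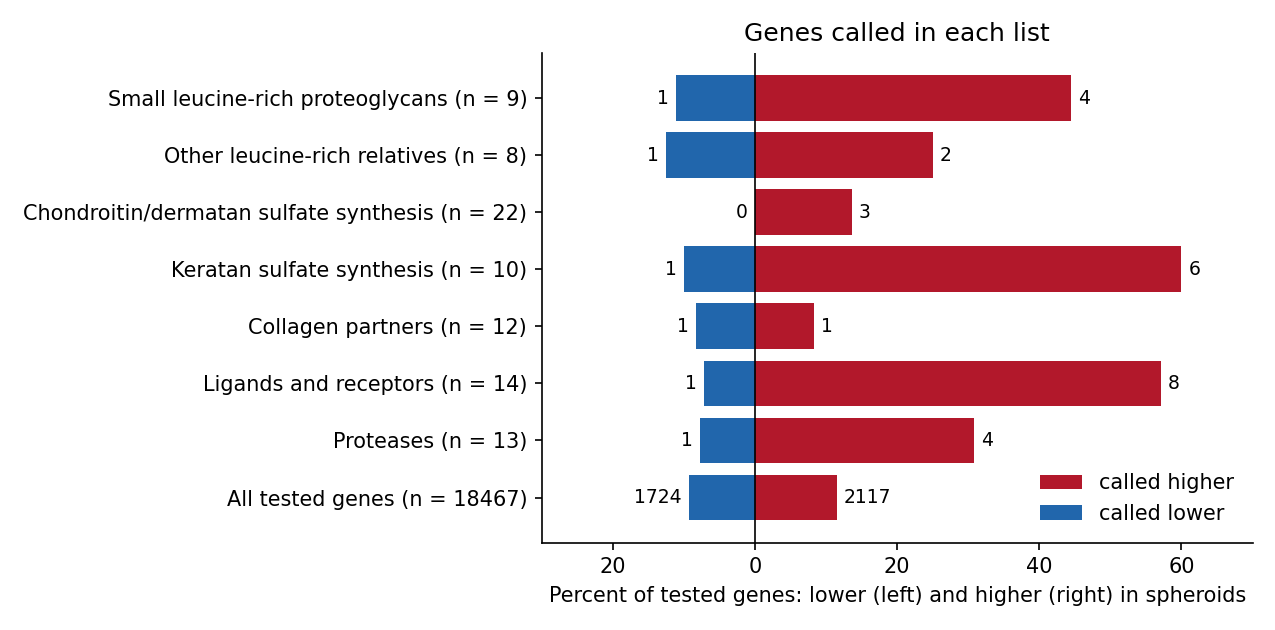
Share of tested genes called higher (right) and lower (left) in spheroids, in percent, for the proteoglycans, 6 related lists and all tested genes; numbers beside the bars are gene counts. The proteoglycans have 4 of 9 genes higher and 1 lower, keratan sulfate enzymes 6 of 10 higher, collagen partners 1 of 12 higher, and all tested genes 2117 of 18467 higher.

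Markers of other cell types were measured beside these changes, and their counts are to be read against the 11.5% of all tested genes called higher and the 9.34% called lower. Immune markers were called higher in 4 of 8 cases and lower in none. The list summed to 739, 775 and 699 FPKM, nearly all of it CD68, at 702 ± 41.0 FPKM (SD, n = 3). Besides CD68, the genes called higher were CD3D, CD3E and CD163. CD3D was listed at 31.33, 30.16 and 36.39 FPKM, with a log2 fold change of 1.88 by the authors' deposited table. CD3E averaged 1.09 FPKM and CD163 0.3 FPKM. PTPRC, the pan-leukocyte marker, was listed at 0.00, 0.01 and 0.06 FPKM. Of 10 markers of fibroblasts and tendon, 1 was called higher (PDGFRA, a growth factor receptor gene, at 3.42 by the authors' deposited table) and 2 lower. Those lower were SCX, at -1.45 with a mean of 11.5 FPKM, and THY1, at -2.46 with a mean of 0.03 FPKM. The sum of the 10 markers ranged from 1137 to 1170 FPKM. Of 6 osteoblast markers, 1 was called higher: IBSP, a bone sialoprotein gene, at 6.18 by the authors' deposited table, listed at 0.99, 1.65 and 1.79 FPKM. Chondrocyte markers summed to 10.9 to 12.2 FPKM, with 1 of 10 tested called higher and 2 lower. COL9A1 was called higher, at a log2 fold change of 4.79 with a mean of 0.133 FPKM. Those lower were ACAN, at -2.16, and HAPLN1, at -1.63, with means of 0.73 and 0.07 FPKM. Sums exist for the spheroid group alone, and the part of other cell states in the changes of the proteoglycan genes was not tested. In such bulk samples of a single line, fewer cells in a given state and less RNA per cell cannot be told apart.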

How the data were processed

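Per the labels' protocols, Trizol served for RNA extraction and the sequencing company's kit for the libraries. Tools named by the submitters' processing notes are Bowtie2 2.2.5, RSEM 1.2.12 and DESeq2 1.4.5, with the build GRCh38.p13; the role of each is not said. Per the file headers, the authors deposited FPKM for each library, rounded to 2 decimals. Beside them stand the log2 fold change, p-value and adjusted p-value (q-value) that the authors obtained with DESeq2 for spheroid against monolayer, named so per the file headers, which cover 18467 of 19215 genes. Adjusting the deposited p-values by Benjamini-Hochberg over those genes gave the deposited q-values to within 1.3e-15. Of 358 tested genes at 0 in every spheroid library, 356 had a fold change below 0, so positive means higher in spheroids. Another 3 FPKM columns match no listed sample and were not used, so the comparison was not recomputed.

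Means, SDs and ranges were computed over the 3 spheroid libraries, replicate numbers being those of the labels. No library was a copy of another: equal values made up 3.49% to 4.74% of the 18120 detected genes. The 10 members, 6 related lists and 4 marker lists were chosen with earlier results of these data known. From each related list the text names up to 4 called genes in each direction averaging 1 FPKM or more, by size of change, and the most abundant gene. A few others, such as TSKU, CHST6, TLR4, BMP1, COL1A1 and COL1A2, were named after their values were seen. Gene order, overlaps and sequences come from RefSeq tables of GRCh38.p14. Alternatives varied the call thresholds, the genes adjusted over, the replicates, the scaling and the pseudocount. The adjustment and call rule were tested on simulated data. Scripts ran under Python 3.11.15 (matplotlib 3.10.9, NumPy 2.4.6, pandas 2.3.3).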

Additional observations from a re-analysis of the deposited data

How the results depend on the processing

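The members called higher (DCN, LUM, FMOD and BGN) were the same 4 at an adjusted p under 0.01, with no minimum fold change, with fold changes centred on the median of all genes, and with adjustment over genes above 0 in the spheroids. With a minimum log2 fold change of 2, the count was 2 (DCN and LUM), and among genes averaging 1 FPKM or more it was 3, since FMOD lies under that level. The filters at 1 FPKM and above 0 use the spheroids, the group in which these genes are higher, so passing them adds no support. The call of OGN as lower rested on the threshold: the count of members called lower was 0 at an adjusted p under 0.01 (authors' DESeq2 p-values). It was also 0 among genes of at least 1 FPKM and 0 among genes above 0 in the spheroids. These 2 filters remove OGN in advance, since it was listed at 0, and so cannot test its call. At an unadjusted p under 0.05, 2 members (OGN and PRELP) were lower with no minimum fold change and 1 (OGN) with it. The count of members by level was 3 at 1 FPKM, 4 at 0.5 FPKM and 6 at 0.1 FPKM. Without each replicate in turn the count at 1 FPKM was 3. This was fixed in advance, since the same 3 members reached 1 FPKM in every library. The order of the members above 0 had 0 swaps without any 1 replicate. It was the same within each library, so leaving out 1 could not change it and adds no support. Rescaling each library to the same total raised all levels together, BGN from 67.0 to 113. The median SD of log2(FPKM + pseudocount) over members above 0 was 0.0768 with a pseudocount of 1 and 0.122 with 0.1. No paired analysis was possible because the listed samples form 1 group. With 2 decimals and unknown depth, values near 0, such as those of ASPN, are coarse.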
